A study of Mus musculus with 5 samples.

Results

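Fc gamma receptors are the proteins through which leukocytes bind the constant part of IgG antibodies, and 6 mouse genes are described here: Fcgr1, Fcgr2b, Fcgr3, Fcgr4, Fcer1g and Fcgrt. They were chosen by name, and all 6 were found among the 32245 gene symbols of the expression tables. Fcgr1 encodes the high-affinity activating receptor, Fcgr3 and Fcgr4 encode further activating receptors, and all of these signal through the common gamma chain, the product of Fcer1g, which carries an immunoreceptor tyrosine-based activation motif. Fcgr2b encodes the only inhibitory member, which carries an inhibitory motif and recruits the phosphatase SHIP1. Fcgrt encodes the heavy chain of the neonatal Fc receptor, which pairs with beta-2-microglobulin inside cells and returns bound IgG from endosomes instead of sending it to lysosomes. In mice, antibodies to CTLA-4, an inhibitory receptor carried in large amounts by regulatory T cells (Tregs), are known to remove Tregs from tumours when macrophages bearing activating Fc gamma receptors engage the antibody, so the levels of these genes in tumour myeloid cells bear on how such an antibody can act.

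The samples were subcutaneous CT26 tumours, a colon carcinoma line of BALB/c origin, grown in BALB/c mice 6 weeks old. Treated animals received 100 µg of the anti-CTLA-4 antibody clone 9H10 into the peritoneum on days 5, 8 and 11 after tumour inoculation, the controls received phosphate-buffered saline on the same days, and tumours were taken on day 13. No control antibody was among the labels, so the antibody's target and its presence as an IgG cannot be told apart in this comparison. Of the 5 samples, the 2 expression libraries carry the values below, 1 per treatment, made with 10x Genomics 5' chemistry; the labels do not say how many animals each held. With 1 library per treatment there is no replicate check and no test between treatments: intervals are 95% intervals for counting error only, and any difference is between these libraries. Cells and values of the anti-CTLA-4 library are called treated below, and those of the other library control.

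The anti-CTLA-4 library held 19989467 unique molecular identifiers (UMIs) in 4186 barcodes, with a median of 3147.5 per barcode, and the control library held 86478313 in 5649 barcodes, with a median of 6827. After filters, 3944 treated and 5236 control cells remained, and 17 barcodes among them were shared by both libraries. The cells were clustered with the 6 receptor genes left out, so that cell classes do not rest on them, and each class is called by markers and is "-like" throughout. The libraries differed in make-up: T-like cells were 53.9% of kept cells in the anti-CTLA-4 library and 7.20% in the control library, while clusters with hardly any Ptprc, the gene of the leukocyte antigen CD45, were 1.06% in the anti-CTLA-4 library and 55.4% in the control library. Myeloid cells with monocyte and macrophage markers were split by the share of their subcluster's UMIs that came from C1qa, C1qb and C1qc, the chains of complement C1q, at 0.1%. The C1q-high class held 312 cells in the anti-CTLA-4 library and 920 in the control library, with median depths of 2595 (treated) and 3046 (control) UMIs. The C1q-low class held 103 cells in the anti-CTLA-4 library and 188 in the control library, with median depths of 7079 (treated) and 4147 (control) UMIs. Monocyte and macrophage markers summed to 25616 counts per 1000000 UMIs (CPM) in C1q-high cells of the anti-CTLA-4 library and 27371 in those of the control library, and dendritic markers to 40.4 (treated) and 53.3 (control). Markers of other cells were less even there. T markers summed to 86.7 (treated) and 20.2 (control), B markers to 91.2 and 40.4, neutrophil markers to 523 and 291, and NK markers to 17.2 and 64.2. In C1q-low cells neutrophil markers summed to 597 (treated) and 1312 (control). A C1q-high subcluster of 13 treated and 8 control cells was led by Penk, Tnfrsf4, Gzmb, Satb1 and Gzma.

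Fcgr2b, Fcgr4 and Fcgr3 lie together within 106 kb of chromosome 1 (GRCm38, positions 170958617 to 171064935), with Fcer1g 165 kb further along the same chromosome. Fcgr1 is on chromosome 3 (96282909 to 96293969, minus strand) and Fcgrt on chromosome 7 (45092990 to 45103851, minus strand). The 5' ends of these genes are what this chemistry reads, and 4 upstream windows are shown because in C1q-high cells, described below, Fcgr1, Fcgr4 and Fcgr2b were at least 1.5-fold lower with treatment and Fcgr3 was not. Each window is the 150 bases before the RefSeq transcription start (GRCm38.p6), written 5' to 3' on the gene's strand, with capitals for the core motif of PU.1 (the myeloid factor encoded by Spi1), GAGGAA read on either strand.
Fcgr1, chr3:96293970-96294119, minus strand: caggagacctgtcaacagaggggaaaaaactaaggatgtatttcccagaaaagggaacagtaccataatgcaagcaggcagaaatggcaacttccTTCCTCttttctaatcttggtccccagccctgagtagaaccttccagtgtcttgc
Fcgr4, chr1:171018776-171018925, plus strand: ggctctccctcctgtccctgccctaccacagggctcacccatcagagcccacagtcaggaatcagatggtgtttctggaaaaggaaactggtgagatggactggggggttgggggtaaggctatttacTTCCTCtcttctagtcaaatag
Fcgr3, chr1:171059404-171059553, minus strand: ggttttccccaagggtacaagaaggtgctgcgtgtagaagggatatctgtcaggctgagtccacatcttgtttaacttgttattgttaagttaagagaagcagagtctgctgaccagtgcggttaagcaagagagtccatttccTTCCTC
Fcgr2b, chr1:170976072-170976221, minus strand: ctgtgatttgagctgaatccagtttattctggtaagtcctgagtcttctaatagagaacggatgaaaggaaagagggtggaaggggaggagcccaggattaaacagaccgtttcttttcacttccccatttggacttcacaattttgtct

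The PU.1 core was found once in the windows of Fcgr1, Fcgr4 and Fcgr3, each time as its reverse complement, and 14.4% of 27025 promoter windows of this length hold it. These letters were not found in the windows of Fcgr2b, Fcer1g or Fcgrt. A match is a description of the letters and not a measured binding site.

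**Figure D1:**
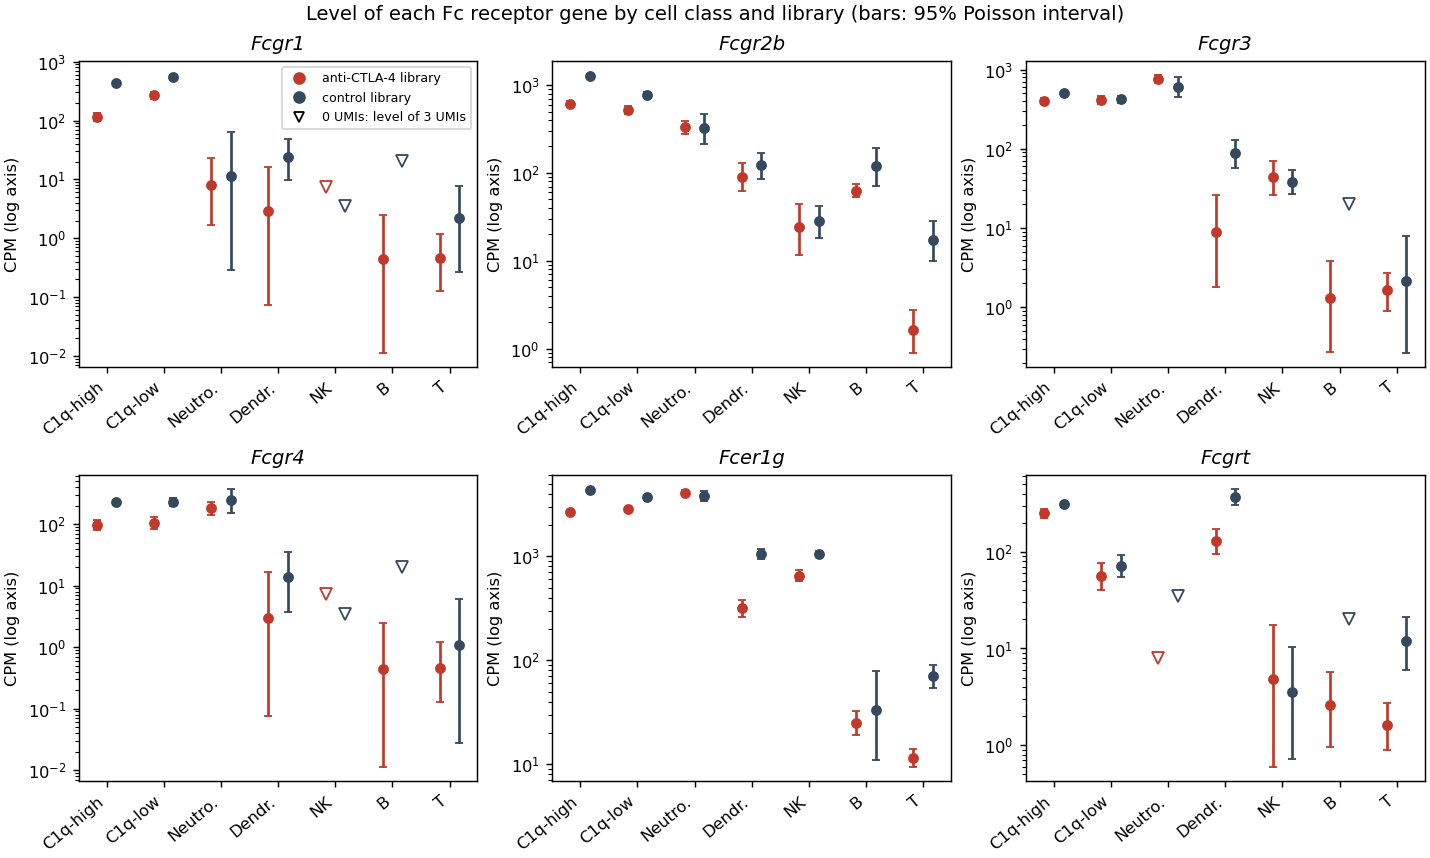
Level of each gene in UMI counts per 1000000 of the class (CPM, log axis) in 7 cell classes, with the anti-CTLA-4 library in red to the left of the control library in dark blue; bars are 95% Poisson intervals and open triangles mark the level of 3 UMIs where none was counted. Fcgr1 stood above 100 CPM in the myeloid classes alone, Fcgr3, Fcgr4 and Fcer1g were as high in neutrophil-like cells, and Fcgr2b was the member seen in B-like cells.

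Each gene had its own place among the cell classes. Levels below are sums over a class in CPM, and T-like cells, which should lack these receptors, give the background. Fcgr1 was close to a marker of the monocyte and macrophage classes: it reached 115.8 CPM in C1q-high and 267 in C1q-low cells of the anti-CTLA-4 library, and 432 in C1q-high and 542 in C1q-low cells of the control library. In neutrophil-like cells Fcgr1 had 3 UMIs in the anti-CTLA-4 library and 1 in the control library, in NK-like cells 0 in each library, and in T-like cells 0.465 (treated) and 2.17 (control) CPM. With 0 UMIs, NK-like cells could hold up to 7.32 CPM of Fcgr1 in the anti-CTLA-4 library and 3.51 in the control library.

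Fcgr3 encodes the activating receptor of widest distribution, on macrophages, neutrophils and NK cells. It was highest in neutrophil-like cells, at 761 CPM (95% interval 675 to 855) in the anti-CTLA-4 library and 611 (457 to 799) in the control library. C1q-high cells had 398 in the anti-CTLA-4 library and 502 in the control library, where it lay within the neutrophil-like interval, and C1q-low cells had 410 (treated) and 421 (control). NK-like cells had 43.9 (26.0 to 69.4) in the anti-CTLA-4 library and 38.6 (26.6 to 54.3) in the control library, against 1.63 (treated) and 2.17 (control) in T-like cells. Fcgr4, whose product binds several mouse IgG subclasses with intermediate affinity, was present in the same myeloid and neutrophil classes: neutrophil-like cells had 181 (141 to 229) in the anti-CTLA-4 library and 242 (150 to 370) in the control library, and NK-like cells had 0 UMIs in each. The neutrophil-like level of Fcgr4 lay above both myeloid classes in the anti-CTLA-4 library, with intervals that did not overlap, and its wider interval held their levels in the control library.

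Fcgr2b was led by C1q-high cells, with 611 CPM in the anti-CTLA-4 library and 1263 in the control library, followed by C1q-low cells with 523 (treated) and 774 (control) and neutrophil-like cells with 330 (treated) and 323 (control). Fcgr2b is also the Fc gamma receptor of B cells, where it restrains the antigen receptor: B-like cells had 62.7 (52.9 to 73.9) in the anti-CTLA-4 library from 143 UMIs and 121 (71.8 to 191) in the control library from 18 UMIs. Of the other receptors, B-like cells from the anti-CTLA-4 library held 3 UMIs of Fcgr3, 1 of Fcgr1 and 1 of Fcgr4. Fcgr2b in T-like cells was 1.63 CPM in the anti-CTLA-4 library and 17.4 in the control library, and in NK-like cells 24.4 (treated) and 28.1 (control). The NK-like level was therefore well above the T-like level in the anti-CTLA-4 library, and its interval of 18.0 to 41.8 overlapped the T-like interval of 9.93 to 28.2 in the control library.

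Fcer1g was the most abundant member, as a chain shared by several receptors. Neutrophil-like cells had 4098 CPM in the anti-CTLA-4 library and 3768 in the control library, C1q-high cells 2639 (treated) and 4353 (control), and C1q-low cells 2831 (treated) and 3696 (control). NK-like cells, in which the chain also serves the natural cytotoxicity receptor, had 649 in the anti-CTLA-4 library and 1049 in the control library, and dendritic-like cells 317 (treated) and 1060 (control). In T-like cells Fcer1g was at 11.5 CPM in the anti-CTLA-4 library and 70.6 in the control library.

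Fcgrt followed no other member. It was high in C1q-high cells (250 CPM in the anti-CTLA-4 library and 311 in the control library) and in dendritic-like cells (129 treated and 368 control), low in C1q-low cells (56.4 treated and 71.8 control), and at 0 UMIs in neutrophil-like cells of each library, which allows up to 7.98 CPM in the anti-CTLA-4 library and 34.6 in the control library. It was also carried by cells that are not leukocytes, described below with the shares of each gene's UMIs.

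The main comparison asked whether the receptors stood at other levels in tumour myeloid cells after anti-CTLA-4. In C1q-high cells 4 of the 6 members were at least 1.5-fold lower in treated cells and none was 1.5-fold higher: Fcgr1, Fcgr4, Fcgr2b and Fcer1g. Of the 9261 genes with at least 20 UMIs over both libraries in this class, 24.6% were lower and 18.6% higher by that much, so differences of this size were common, and the median log2 ratio was -0.89 for the 6 members and -0.09 for all genes. In C1q-low cells 2 of 6 members, Fcgr1 and Fcgr4, were at least 1.5-fold lower, against 12.5% of 5974 genes, and none was higher, against 15.4%. The members' median log2 ratio there was -0.48, beside 0.03 for all genes. The C1q genes were themselves lower in treated C1q-high cells, with ratios of 0.434 (C1qa), 0.454 (C1qb) and 0.437 (C1qc). In C1q-low cells the ratios of these genes were 0.459, 0.498 and 0.281, in that order. Among C1q-high cells thinned to equal depth, 39.2% of the anti-CTLA-4 library and 55.9% of the control library had a C1qa UMI. The class was thus not matched in C1q content, and levels by C1q content of single cells are given below.

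Fcgr1 differed most in C1q-high cells, and Fcgr4 and Fcgr1 did so in C1q-low cells. The C1q-high level of Fcgr1, 115.8 CPM (98.3 to 136) in the anti-CTLA-4 library, stood against 432 (411 to 454) in the control library, a ratio of 0.268 (0.226 to 0.316). In C1q-low cells it had 267 (232 to 307) in the anti-CTLA-4 library against 542 (493 to 594) in the control library, a ratio of 0.493. Among cells thinned to 1000 UMIs, so that depth was equal, a Fcgr1 UMI was found in 8.02% of 237 C1q-high cells of the anti-CTLA-4 library and in 31.3% of 774 of the control library; without thinning the share was 24.7% in the anti-CTLA-4 library and 53.8% in the control library. The thinned share in T-like cells was 0.0485% in the anti-CTLA-4 library and 0.617% in the control library, with median depths of 3304 (treated) and 1948 (control) UMIs. How far the 2 classes differed in this depended on where cells were divided: with cells thinned before clustering the log2 ratio was -0.96 in C1q-high and -3.25 in C1q-low cells, instead of -1.90 and -1.02. For both classes summed, a sum chosen after seeing the data that does not turn on this division, the Fcgr1 ratio was 0.375 (0.334 to 0.420).

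Fcgr4 had 96.4 CPM (80.5 to 115) in C1q-high cells of the anti-CTLA-4 library against 226 (211 to 242) in those of the control library, a ratio of 0.427 (0.352 to 0.515), and 105 (treated) against 226 (control) in C1q-low cells, a ratio of 0.464. Fcgr2b, the inhibitory receptor, was lower to a like degree in C1q-high cells, with a ratio of 0.483 (0.448 to 0.521), and its ratio was 0.675 (0.594 to 0.767) in C1q-low cells. Fcer1g had ratios of 0.606 in C1q-high and 0.766 in C1q-low cells. Fcgr3 stood apart among the activating receptors: its ratio was 0.794 (0.719 to 0.875) in C1q-high cells and 0.973 (0.832 to 1.14) in C1q-low cells, short of 1.5-fold in each. With thinning, a Fcgr3 UMI was found in 32.1% of C1q-high cells of the anti-CTLA-4 library and 31.3% of those of the control library. In the 13 alternatives run, Fcgr1, Fcgr2b and Fcgr4 were at least 1.5-fold lower in C1q-high cells every time, and Fcer1g 12 times, with a log2 ratio of -0.56 when doublets were kept. In C1q-low cells Fcgr1 and Fcgr4 were that much lower in all 13, Fcgr2b in 9 and Fcer1g in 6. With both classes summed the ratios were 0.440 (0.377 to 0.512) for Fcgr4, 0.495 (0.464 to 0.527) for Fcgr2b, 0.640 for Fcer1g and 0.827 for Fcgr3.

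**Figure D2:**
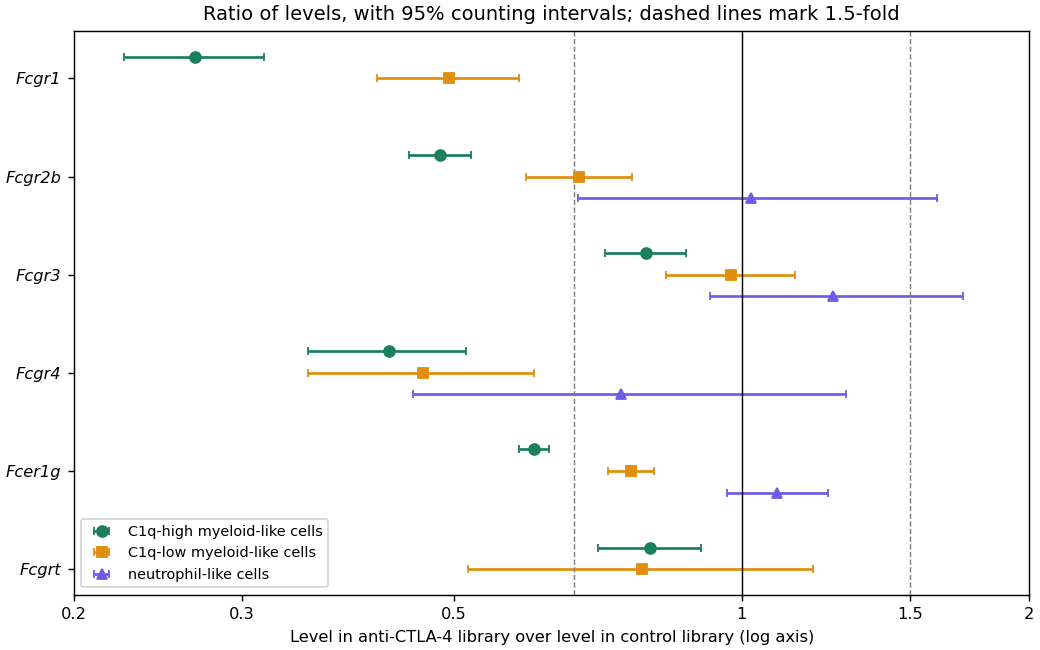
Ratio of each gene's level in the anti-CTLA-4 library to its level in the control library (log axis), in C1q-high myeloid (circles), C1q-low myeloid (squares) and neutrophil-like cells (triangles), with 95% counting intervals. Fcgr1, Fcgr2b and Fcgr4 lay left of the 1.5-fold line in C1q-high cells, Fcgr3 and Fcgrt did not, and all neutrophil-like intervals that could be given crossed 1.

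Fcgrt had ratios of 0.802 in C1q-high and 0.786 (0.517 to 1.19) in C1q-low cells, and its direction in C1q-high cells turned under 3 alternatives: the log2 ratio was 0.33 with doublets kept, 0.33 with C1q split per cell and 0.69 with a C1q limit of 0.2% in place of 0.1%, chosen after seeing the data, instead of -0.32. At a Leiden resolution of 2.0 it was -0.017. The limit of 0.2% moves 2 subclusters, of 66 and 61 cells in the anti-CTLA-4 library and 1 cell each in the control library, whose C1q share was 0.111% and 0.102% and whose Fcgrt was 15.4 and 20.6 CPM.

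In neutrophil-like cells no member was 1.5-fold apart, although 27.2% of 2057 genes were that much lower and 32.5% higher in the anti-CTLA-4 library. Fcgr3 had a ratio of 1.25 (0.927 to 1.70), Fcer1g 1.09 (0.965 to 1.23), Fcgr2b 1.02 (0.674 to 1.60) and Fcgr4 0.748 (0.453 to 1.28). The control library had 83 neutrophil-like cells with a median of 933 UMIs, and the Fcgr4 interval takes in differences well past 1.5-fold. Neutrophil markers summed to 87958 CPM in the anti-CTLA-4 library and 81659 in the control library.

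In dendritic-like cells, 36 in the anti-CTLA-4 library and 37 in the control library, 3 of 4 members with at least 20 UMIs were lower (24.7% of 3574 genes were): Fcer1g (317 CPM in treated against 1060 in control cells), Fcgrt (129 in treated against 368 in control cells) and Fcgr3 (8.82 in treated against 88.6 in control cells). Fcgr2b had 91.1 CPM in treated against 123 in control cells. The class held other cells in each library: dendritic markers summed to 8189 CPM in the anti-CTLA-4 library and 1912 in the control library, and monocyte and macrophage markers to 885 (treated) and 2243 (control); their part in these differences was not tested. In NK-like cells Fcer1g had a ratio of 0.619 (0.538 to 0.711) and was the 1 of 3 members called lower, against 18.1% of 6258 genes, while Fcgr3, which pairs with it there, had 1.14 (0.603 to 2.08). The NK markers themselves summed to 5558 CPM in the anti-CTLA-4 library and 12624 in the control library. In B-like cells Fcgr2b had a ratio of 0.518 (0.316 to 0.899), and 15.8% of 7668 genes were lower by 1.5-fold.

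The balance of activating and inhibitory receptors is given as the UMIs of Fcgr1, Fcgr3 and Fcgr4 per UMI of Fcgr2b in the same cells. In C1q-high cells it was even in the anti-CTLA-4 library, with 817 UMIs on each side (interval of the ratio 0.906 to 1.103), and 0.918 (0.880 to 0.958) in the control library. In C1q-low cells it was 1.496 (1.31 to 1.71) in the anti-CTLA-4 library and 1.54 (1.39 to 1.70) in the control library. As clustered here, the sums were near each other between libraries while their parts were not. With cells thinned before clustering the C1q-low sums did part, at 1.17 in the anti-CTLA-4 library and 1.93 in the control library. In C1q-high cells Fcgr3 contributed 0.652 UMIs per Fcgr2b UMI in the anti-CTLA-4 library and 0.397 in the control library, Fcgr1 0.190 (treated) and 0.342 (control), and Fcgr4 0.158 (treated) and 0.179 (control). The balance moved with the clustering: over the alternatives the C1q-low value ran between 1.12 and 1.82 in the anti-CTLA-4 library and between 1.26 and 1.96 in the control library, and the C1q-high value between 0.932 and 1.15 (treated) and between 0.762 and 0.962 (control). Neutrophil-like cells had 2.88 (2.34 to 3.56) in the anti-CTLA-4 library and 2.68 (1.71 to 4.30) in the control library, above both myeloid classes in each library by intervals that did not overlap. In the control library that gap to C1q-low cells was narrow, the C1q-low interval ending at 1.70, and the C1q-low values of up to 1.96 under other settings lay inside the neutrophil-like interval. B-like cells from the anti-CTLA-4 library, at 0.0350, were almost purely Fcgr2b.

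Fcgr2b and Fcgr3 encode near-identical outer domains, and a read from a shared stretch would match both. How far this touched the counts of either gene was not tested. Of the 50-base windows in the first 500 bases of the Fcgr3 transcripts, up to 20.4% also occurred in Fcgr2b, and 9.73% of the 90-base windows did, whereas Fcgr4 shared none with either. Fcgr2b also overlaps an annotated antisense gene, Gm38204, and Fcgrt another, Gm45669, and the labels do not say whether strand was used in counting.

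Within single cells thinned to 1000 UMIs, a C1q-high cell carried UMIs of both an activating receptor and Fcgr2b in 16.9% of cases in the anti-CTLA-4 library and 37.5% in the control library. It carried an activating receptor without Fcgr2b in 25.7% (20.3 to 31.8) of cells in the anti-CTLA-4 library and 18.1% (15.4 to 21.0) in the control library, and neither in 37.1% (31.0 to 43.6) of treated and 20.7% (17.9 to 23.7) of control cells. An activating receptor beside Fcer1g, its signalling chain, was found in 36.7% of C1q-high cells of the anti-CTLA-4 library and 54.1% of those of the control library, and in 85 of 172 neutrophil-like cells from the anti-CTLA-4 library and 16 of 32 of the control library. These are shares of cells with a UMI, and a cell without 1 may still express the gene.

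Between C1q-high and C1q-low cells of the same library, Fcgrt was the member with the widest gap. Fcgrt was 4.42 times as high in C1q-high as in C1q-low cells of the anti-CTLA-4 library (3.20 to 6.25) and 4.34 times in the control library (3.34 to 5.72), and 21.5% (treated) and 33.0% (control) of all genes were at least 1.5-fold higher. Fcgr2b was 1.17 times as high in the anti-CTLA-4 library and 1.63 times in the control library. Fcgr1 was lower in C1q-high cells, at 0.433 times in the anti-CTLA-4 library and 0.798 times in the control library, and 13.4% (treated) and 14.3% (control) of genes were at least 1.5-fold lower. In the anti-CTLA-4 library that direction turned with the clustering: the log2 ratio was 0.70 with cells thinned before clustering, instead of -1.21. Fcgr4 was near 1 in each, at 0.920 (0.689 to 1.23) in the treated and 0.999 (0.852 to 1.18) in the control library, as was Fcgr3 at 0.972 (treated) and 1.19 (control). The Fcgrt gap did not hold for every C1q-high subcluster. In control cells the Rgs1-led subcluster had 88.2 CPM and the Ccl8-led 794, beside 70.2 and 73.3 in the C1q-low subclusters. In treated cells the Il1a-led and Nos2-led C1q-high subclusters had 15.4 and 20.6 CPM, beside 51.1 and 63.7 in the C1q-low subclusters.

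Levels were also taken along the C1q content of single myeloid cells, counted after thinning each to 1000 UMIs. This uses no border between the C1q classes, although the clusters still decided which cells were taken as myeloid. The Fcgrt contrast was seen here too. For Fcgr1 in the anti-CTLA-4 library, the intervals at no C1q UMI (79.3 to 181) and at 5 or more (30.6 to 181) overlapped. Cells with 5 or more C1q UMIs had 597 CPM of Fcgrt in the anti-CTLA-4 library and 451 in the control library, and cells with none had 9.80 (treated) and 88.4 (control). Fcgr1 was lower in the anti-CTLA-4 library at each C1q content: 123 (treated) against 584 (control) CPM in cells with no C1q UMI and 83.3 (treated) against 350 (control) in cells with 5 or more, with intervals that overlapped only at 2 to 4. Fcgr2b had 402 (treated) against 998 (control) CPM in cells with no C1q UMI and 694 (treated) against 1331 (control) in those with 5 or more, while in between it went the other way with intervals that overlapped, at 857 (treated) against 621 (control) with 1 C1q UMI and 811 (treated) against 724 (control) with 2 to 4. Fcgr3 overlapped between libraries at all 4 contents.

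**Figure D3:**
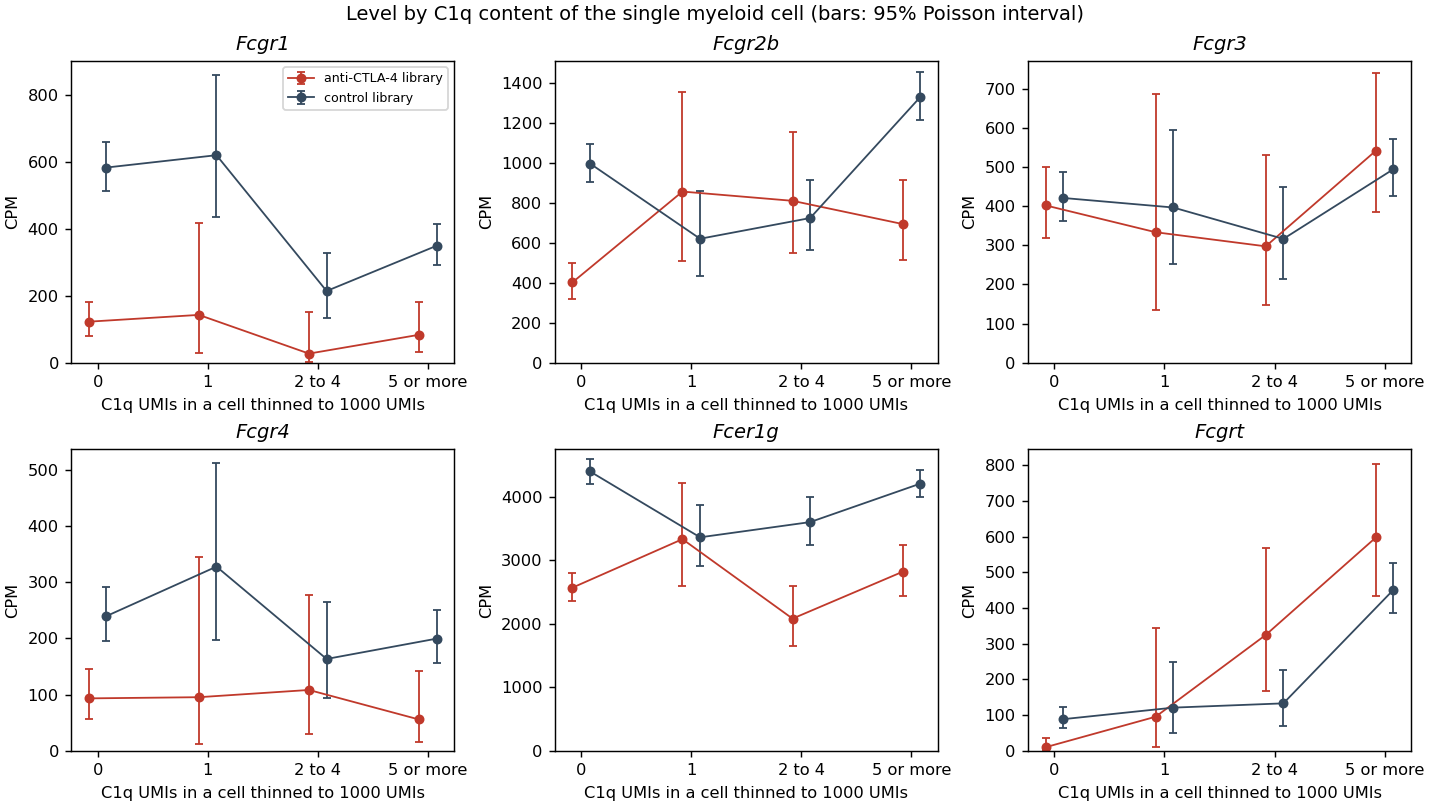
Level of each gene in CPM in myeloid cells thinned to 1000 UMIs, by the number of C1qa, C1qb and C1qc UMIs in the cell, with the anti-CTLA-4 library in red and the control library in dark blue; bars are 95% Poisson intervals. Fcgrt was highest at 5 or more C1q UMIs in both libraries, Fcgr1 lay lower in the anti-CTLA-4 library at each content, and Fcgr3 overlapped throughout.

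The myeloid classes were made of subclusters, and the receptors varied more among these than between the C1q classes. A subcluster led by Ifit2, Ifit3, Cxcl10 and Rsad2, genes induced by interferons, held 3 cells of the anti-CTLA-4 library and 144 of the control library. Its control cells had the highest Fcgr1 of the subclusters with at least 20 control cells, at 1088 CPM, the highest Fcgr4, at 591, and the highest Fcer1g, at 5593, along with 291 CPM of Ifit3. In the other control C1q-high subclusters with at least 20 cells Fcgr1 ran between 106 and 426 CPM and Fcgr4 between 48.1 and 205. Without this subcluster, an omission chosen after seeing the data, the C1q-high log2 ratio was -1.41 for Fcgr1, instead of -1.90, and -0.64 for Fcgr4, instead of -1.23.

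A subcluster led by Ccl8, Cbr2, Cd163 and Folr2, genes of tissue-resident macrophages, held 24 cells of the anti-CTLA-4 library and 171 of the control library. It had the highest Fcgrt of all, at 1157 CPM in the anti-CTLA-4 library and 794 in the control library, and the highest Fcgr3 of each library, at 534 (treated) and 736 (control). Its Fcgr2b was 838 (treated) and 1794 (control), the control value being the highest of that library. Its Fcgr4 was 79.8 (treated) and 109 (control) CPM. Subclusters led by Il1a and Ppbp and by Nos2, each with Arg1 and Mmp12, made up 127 of the 312 C1q-high cells of the anti-CTLA-4 library and held 1 control cell each. They had 84.9 and 88.6 CPM of Fcgr1, 425 and 377 of Fcgr3 and 108 and 107 of Fcgr4. Cycling cells, led by Pclaf, Birc5 and Top2a, numbered 1 in the anti-CTLA-4 library and 118 in the control library, with 304 CPM of Fcgr1 and 188 of Fcgr4.

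**Figure D4:**
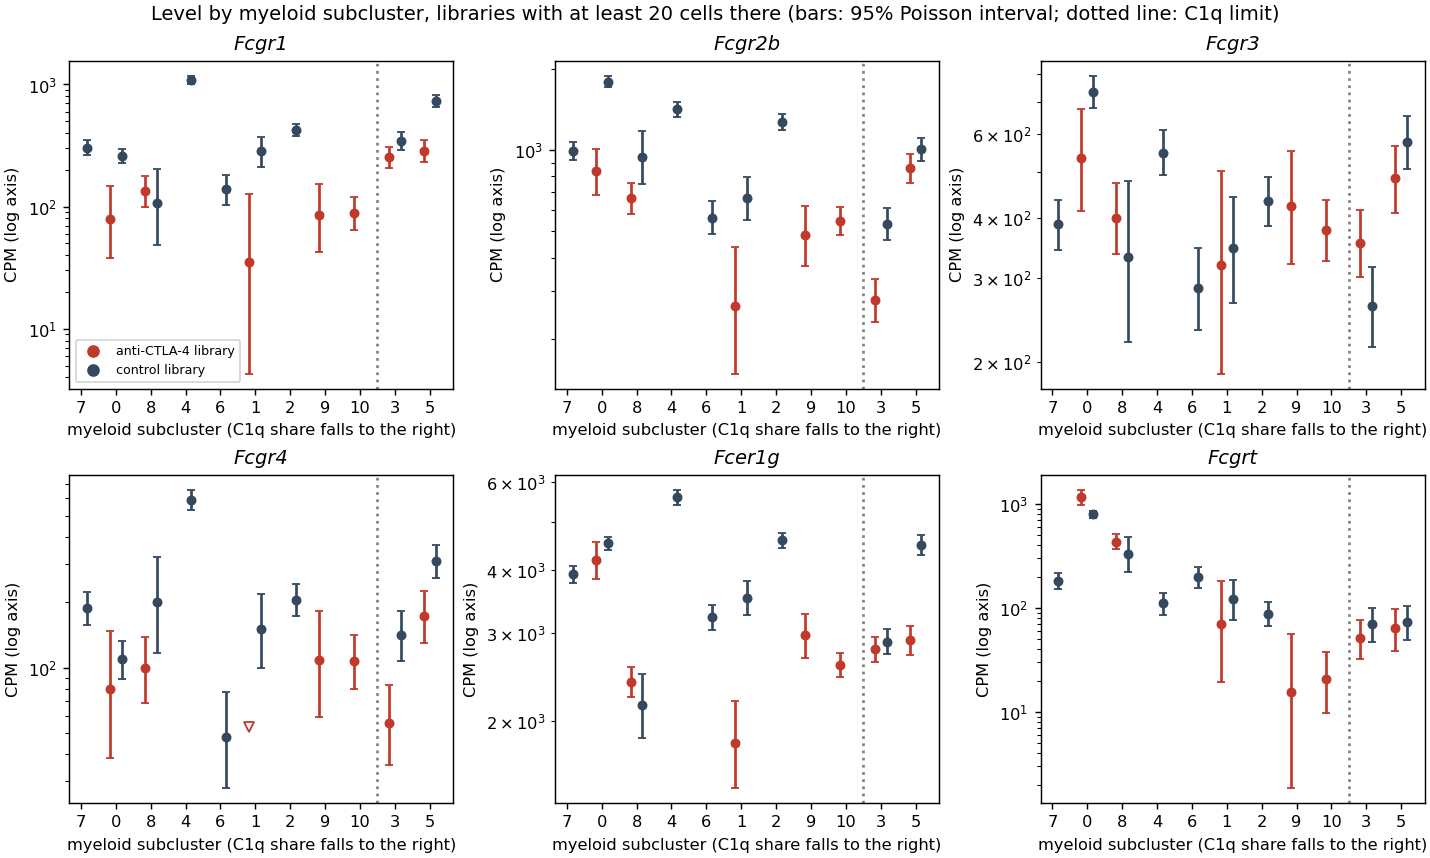
Level of each gene in CPM (log axis) in myeloid subclusters ordered by their C1q share, with the anti-CTLA-4 library in red and the control library in dark blue where it has at least 20 cells; bars are 95% Poisson intervals, the open triangle marks the level of 3 UMIs where none was counted, and the dotted line parts the C1q-high from the C1q-low subclusters. Subcluster 4, led by Ifit genes, had the highest Fcgr1 and Fcgr4, and subcluster 0, led by Ccl8 and Cd163, the highest Fcgrt.

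Since make-up differed this much, the libraries were also compared inside the 5 subclusters with at least 20 cells in each. Fcgr4 was lower in the anti-CTLA-4 library in all 5, with ratios of 0.397 (0.236 to 0.649) and 0.556 (0.397 to 0.769) in the C1q-low subclusters, 0.495 (0.269 to 0.944) in the Retnla-led subcluster, 0.732 (0.341 to 1.40) in the Ccl8-led subcluster, and 0 treated against 27 control UMIs in a shallow subcluster led by Crabp1 and Cxcl13. Fcgr2b was lower in all 5, with ratios between 0.400 and 0.850 and no interval reaching 1. Fcgr1 was lower in 4 of 5, with ratios of 0.307 in the Ccl8-led subcluster, 0.124 in the shallow subcluster, and 0.731 and 0.392 in the C1q-low subclusters, whereas the Retnla-led subcluster had 1.26 (0.612 to 2.94). Fcer1g was lower beyond its interval in the shallow subcluster (0.511) and 1 C1q-low subcluster (0.645), and its interval held 1 in the other 3. Fcgr3 went both ways, at 0.726 in the Ccl8-led and 1.36 in a C1q-low subcluster. Fcgrt was 1.46 (1.21 to 1.74) in the Ccl8-led and 1.32 (0.875 to 2.05) in the Retnla-led subcluster, higher in the anti-CTLA-4 library in both although it was lower over the whole class.

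Summed over each library, the share of each gene's UMIs held by each class differed between the libraries. In the anti-CTLA-4 library C1q-high cells still held the largest share of every member but Fcgr1. C1q-high cells held 45.3% (39.4 to 51.2) of Fcgr4 UMIs in the anti-CTLA-4 library and 77.9% (75.3 to 80.4) in the control library, and neutrophil-like cells held 23.9% (19.0 to 29.2) in the treated and 2.03% (1.26 to 3.09) in the control library. For Fcgr3 the neutrophil-like share was 23.8% in the anti-CTLA-4 library and 2.29% in the control library, and the NK-like share 1.498% (treated) and 1.425% (control). Fcgr1 stayed in the monocyte and macrophage classes, where C1q-low cells held 53.2% in the anti-CTLA-4 library and 22.3% in the control library. All shares were computed for the main clustering alone. The Fcgr1 levels of the C1q-high and C1q-low classes moved with the clustering, as given above, so this division of Fcgr1 may move too. B-like cells held 8.40% of Fcgr2b in the anti-CTLA-4 library and 0.334% in the control library. For Fcgrt, clusters without Ptprc held 1.63% in the anti-CTLA-4 library and 69.0% in the control library, and fibroblast-like cells 27.3% (treated) and 4.74% (control). These shares follow the number of cells of each class as well as the level per cell.

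**Figure D5:**
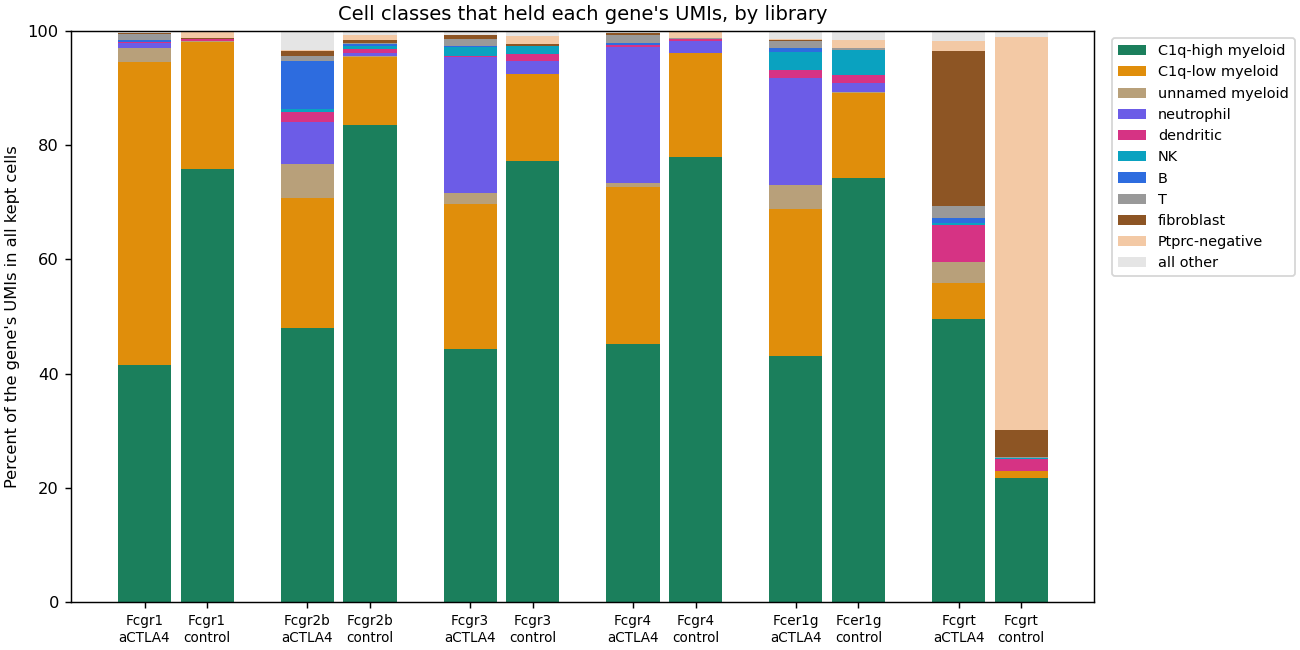
Percent of each gene's UMIs over all kept cells that lay in each cell class, for the anti-CTLA-4 library (left bar of each pair, marked aCTLA4) and the control library. Neutrophil-like cells, in violet, held 23.9% of Fcgr4 UMIs in the anti-CTLA-4 library and 2.03% in the control library, and cells without Ptprc held 69.0% of Fcgrt UMIs in the control library.

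Receptor-bearing cells were then set beside Tregs, counted as T-like cells with a Foxp3 UMI, the lineage factor of Tregs, after thinning to 1000 UMIs. Foxp3 was found in 58 of 2061 T-like cells from the anti-CTLA-4 library, 2.81% (2.14 to 3.62), and in 39 of 324 of the control library, 12.04% (8.70 to 16.1). Of all leukocytes these cells were 1.69% in the anti-CTLA-4 library and 2.37% in the control library, so the gap among T-like cells came with many more T-like cells in the anti-CTLA-4 library. Outside T-like cells 1 of 1380 thinned leukocytes had a Foxp3 UMI in the anti-CTLA-4 library and 0 of 1325 in the control library. Cells with a Fcgr4 UMI outside the T-like class numbered 0.897 (0.605 to 1.33) per Foxp3 cell in the anti-CTLA-4 library and 4.05 (2.84 to 5.91) in the control library. The numbers were 0.569 (treated) and 7.77 (control) for Fcgr1, 3.36 (treated) and 8.36 (control) for Fcgr3, 3.60 (treated) and 15.2 (control) for Fcgr2b, and 8.83 (treated) and 27.7 (control) for Fcer1g. Such ratios take in which cells each suspension held, and they do not measure contact or killing; without the Ifit-led subcluster the Fcgr4 number of the control library was 2.73.

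Genes around the receptors in the same pathway moved in both directions in C1q-high cells. Of 16 measured genes of activating signalling, 4 were at least 1.5-fold higher in the anti-CTLA-4 library and 3 lower. Over all genes of this class 18.6% were higher and 24.6% lower by that much, and the counts of this list and of the next lists of signalling and phagocytosis genes lay near those shares or under them. Syk, the kinase that docks on the gamma chain, had a ratio of 2.10 (1.78 to 2.47) and Pik3r5, a regulatory subunit of phosphoinositide 3-kinase gamma, 2.61 (2.14 to 3.19), while Rac2, a GTPase of the cytoskeleton and the oxidase, had 0.480 (0.405 to 0.565). Of 13 genes of inhibitory signalling, 3 were lower and none higher: Ptpn6, the phosphatase SHP-1, had 0.436 (0.351 to 0.536), and the adaptors Dok3 and Dok1 had 0.569 and 0.556. Inpp5d, which encodes SHIP1, the phosphatase downstream of Fcgr2b, had 0.797 (0.632 to 0.997). The 2 genes of this list with most UMIs lay slightly above 1, Lilrb4a at 1.13 (1.04 to 1.24) and Sirpa at 1.13 (1.02 to 1.26). The median log2 ratio of the 13 genes was 0.11, so the list as a whole was not lower. Tyrobp, the adaptor most like the gamma chain, had 0.826, short of 1.5-fold.

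Of 4 measured receptors outside the Fc gamma family that use the gamma chain, 3 were at least 1.5-fold higher in treated C1q-high cells and none was that much lower. Over all genes of this class 18.6% were higher and 24.6% lower by that much. Clec4e, the receptor Mincle, had 383 CPM in C1q-high cells of the anti-CTLA-4 library against 92.3 in those of the control library, a ratio of 4.15 (3.61 to 4.78). Clec4d had 3.13 and Clec4n, Dectin-2, 1.502, whereas Pira2 had 0.716 (0.581 to 0.877). In C1q-low cells Clec4e had 0.832, Clec4d 0.940, Clec4n 1.22 and Pira2 0.607 (0.427 to 0.853), so none was 1.5-fold higher there and Pira2 was lower by that much. The C1q-low level of Clec4e was 860 CPM in the anti-CTLA-4 library and 1033 in the control library, above the C1q-high level in each. These receptors were not compared inside subclusters, and any part of the differing class make-up in their ratios was not tested. Of 16 genes of phagocytosis and the oxidase, 3 were higher in C1q-high cells and 2 lower; Ctsd, a lysosomal protease, had 2.46 and Cybb, the catalytic oxidase chain, 1.90, and Ncf4 0.604. Of 10 regulators, Cebpb had 4.02 (3.78 to 4.28) and Irf1 2.05, whereas Spi1, which encodes PU.1, had 0.649 (0.589 to 0.714) and Il4ra 0.588. B2m, the partner of Fcgrt, had 1.11. In C1q-low cells Cebpb had 3.08, Pik3r5 2.19 and Cybb 1.83, Rac2 0.636, Spi1 0.757 and Ptpn6 1.05. Fcrls, an Fc receptor-like gene of macrophages, had 8.97 CPM in C1q-high cells of the anti-CTLA-4 library against 112 in those of the control library, a ratio of 0.0799 (0.0409 to 0.141).

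By likeness of level over 23 points of cell class and library, the gene nearest to Fcgr1 among 13709 was Clec4a3 (Pearson r of log2 levels 0.994), that nearest to Fcer1g was Tyrobp (0.989), and that nearest to Fcgr4 was Gm5150 (0.986), with Sirpb1c next (0.969). Fcgr3 was nearest to Itgam, the integrin CD11b (0.975), and Fcgrt to Clcn5 (0.916). Points of 1 library share its depth and its free RNA, and points of 1 class share its cells, so these values describe the order of levels and carry no test.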

How the data were processed

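The authors' deposited tables hold whole-number UMI counts per gene and barcode, made with Cell Ranger 5.0.0 against mm10 per the submitters' processing notes; the annotation release is not given in the sources used here. Clonotype tables were not used. The 6 members and all gene lists were chosen with earlier results of these data known.

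Barcodes with at least 200 genes and at most 15% mitochondrial counts were kept, and the highest Scrublet scores were removed as doublets at 0.8% per 1000 barcodes in each library (140 in the anti-CTLA-4 library and 255 in the control library), since Scrublet's own limit marked 1 and 0. Cells were clustered with scanpy 1.11.5 (2000 variable genes, 30 components, 15 neighbours, Leiden resolution 1), without the 6 members. Clusters were named from marker lists, needing at least 3 markers. Counts were summed per class and library; levels have exact Poisson and ratios exact conditional binomial 95% intervals, and shares Clopper-Pearson intervals. A gene was called at 1.5-fold with at least 20 UMIs; a count of 0 allows 3. Shares used cells thinned to 1000 UMIs. Named were all 6 members and, within each list, the 2 genes with most UMIs and the 2 farthest from a ratio of 1 by interval bound; Dok1, Inpp5d, Ncf4 and Il4ra were chosen after their values were seen, and the gene nearest to Fcgr2b is not reported here. On simulated counts the ratio intervals held the true value for 96.2% of 9261 genes of the C1q-high comparison. Those counts were drawn from the Poisson model that the intervals assume. The figure therefore checks the calculation alone and says nothing of spread between cells, subclusters or animals.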

Additional observations from a re-analysis of the deposited data

Results flagged for a closer look

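Fcgr3 went in opposite directions in 2 myeloid subclusters, each beyond its counting interval. In the C1q-low subcluster led by Procr and Cxcl3 it had 355 CPM in the 63 cells of the anti-CTLA-4 library against 262 in the 94 cells of the control library, a log2 ratio of 0.44. In the C1q-high subcluster led by Ccl8 and Cd163 it had 534 CPM in 24 cells of the anti-CTLA-4 library against 736 in 171 cells of the control library, a log2 ratio of -0.46. The difference between these ratios was not tested, since each subcluster has 1 library per treatment. Both ratios are under 1.5-fold. Fcgr2b, which shares part of its transcript sequence with Fcgr3, was lower in the anti-CTLA-4 library in both subclusters. Any part of the shared sequence in the Fcgr3 ratios was not tested.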

How the results depend on the processing

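No paired analysis was possible because each treatment has 1 expression library. The alternatives were other filters, doublets kept, other clusterings, other C1q splits and other scales; a limit of 0.2% for C1q, cells of at least 2000 UMIs, omission of the Ifit-led subcluster and the sum of both myeloid classes were chosen after seeing the data. In both classes summed, the log2 ratio of all 6 members stayed below 0 in the 10 alternatives run for this sum. The per-cell C1q split and the 0.2% limit are among these and cannot change the sum, since they only move cells between the classes. The sum was not computed under other scales. Apart from Fcgrt, each member in each class stayed below 0 in all 13 alternatives run for it. Values outside the counting interval of the reported value follow; the cause was not tested.

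With a mitochondrial limit of 10%, the log2 ratio was -1.50 for Fcgr1 in C1q-high cells, and in C1q-low cells -2.06 for Fcgr1, -0.88 for Fcgr2b, -0.33 for Fcgr3 and -0.73 for Fcer1g; the activating to inhibitory ratio of the control library was 0.874 in C1q-high and 1.93 in C1q-low cells. With at least 500 genes per cell, Fcgr1 was at -1.46 and Fcgrt at -0.66 in C1q-high cells, and in C1q-low cells Fcgr1 at -1.87, Fcgr2b at -0.96 and Fcer1g at -0.57; the C1q-low balance was 1.82 in the anti-CTLA-4 library and 1.92 in the control library, and 19.3% of genes were lower in C1q-low cells. With doublets kept, C1q-high cells had -1.53 for Fcgr1, -0.11 for Fcgr3, -0.56 for Fcer1g and 0.33 for Fcgrt, and C1q-low cells -2.07 for Fcgr1, -1.02 for Fcgr2b, -0.91 for Fcgr3 and -0.91 for Fcer1g. The balance was then 1.11 in the anti-CTLA-4 library and 0.962 in the control library in C1q-high cells, 1.12 and 1.38 in C1q-low cells, and 26.1% of genes were higher in C1q-low cells.

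At Leiden resolution 0.5, C1q-high cells had -1.58 for Fcgr1, -1.23 for Fcgr2b, -0.58 for Fcgr3, -0.90 for Fcer1g and -0.77 for Fcgrt, and C1q-low cells -1.98 for Fcgr1, -0.92 for Fcgr2b, -0.28 for Fcgr3 and -0.66 for Fcer1g; the control balance was 0.872 in C1q-high and 1.96 in C1q-low cells, and 19.9% of genes were lower in C1q-low cells. At resolution 2.0, C1q-high cells had -1.34 for Fcgr1 and -0.017 for Fcgrt, and C1q-low cells -2.19 for Fcgr1, -0.53 for Fcgr3, -0.62 for Fcgr4 and -0.62 for Fcer1g; the anti-CTLA-4 balance was 1.15 in both classes, and 24.4% of genes were higher in C1q-low cells. With cells thinned to 2000 UMIs before clustering, C1q-high cells had -0.96 for Fcgr1 and -0.65 for Fcer1g, and C1q-low cells -3.25 for Fcgr1, -0.86 for Fcgr2b, -0.35 for Fcgr3, -0.85 for Fcer1g and -1.18 for Fcgrt. The anti-CTLA-4 balance was then 1.13 in C1q-high and 1.17 in C1q-low cells, the control balance in C1q-low cells 1.93, and 21.4% of genes were lower and 24.6% higher in C1q-low cells.

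With the C1q split made per cell, C1q-high cells had -1.50 for Fcgr1, -0.59 for Fcer1g and 0.33 for Fcgrt, and C1q-low cells -1.66 for Fcgr1, -0.90 for Fcgr2b, -0.69 for Fcer1g and -1.29 for Fcgrt; the balance was 0.844 in C1q-high cells of the control library, and 1.28 and 1.26 in C1q-low cells of the anti-CTLA-4 and control libraries. With the limit at 0.2%, C1q-high cells had -0.87 for Fcgr2b and 0.69 for Fcgrt, and C1q-low cells -1.54 for Fcgr1, with an anti-CTLA-4 balance of 1.28. With cells weighted equally, C1q-high cells had -2.21 for Fcgr1, -0.80 for Fcer1g and -0.081 for Fcgrt. With the median gene as scale, Fcer1g in C1q-high cells had -0.63. Without the Ifit-led subcluster, C1q-high cells had -1.41 for Fcgr1, -0.64 for Fcgr4 and -0.63 for Fcer1g, the control balance was 0.762, and the control library had 2.73 Fcgr4 cells per Foxp3 cell. Without thinning, there were 1.40 Fcgr4 cells per Foxp3 cell in the anti-CTLA-4 library and 6.09 in the control library. With no minimum beyond 1 UMI, 27.7% of genes were lower and 23.9% higher in C1q-low cells.

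Fcgr1 in C1q-high over C1q-low cells of the anti-CTLA-4 library turned round, with a log2 ratio of 0.043 at resolution 2.0 and 0.70 with thinning before clustering, instead of -1.21. Depth limits Fcgr1 and Fcgrt in neutrophil-like cells, every receptor but Fcer1g in NK-like cells, and B-like cells of the control library, where 72 cells gave 18 Fcgr2b UMIs. The number of cells of each class also differs between suspensions, and 1 library per treatment gives no estimate of how far a repeat would differ.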
